A study of Mus musculus with 6 samples.

Results

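The protein genes of the mitochondrial ribosome were followed in the kidneys of diabetic mice. They were taken as every protein-coding gene whose symbol begins with Mrpl or Mrps followed by a digit, which gave 78 of the 55401 genes in the deposited tables. Poly(A) RNA of whole kidney was sequenced in 6 libraries, 3 from mice carrying the Cdo1KKO genotype (Cdo1KKO/Sed) and 3 from wild-type mice (WT/Sed). All mice of both groups had type 1 diabetes from streptozotocin, a toxin of the insulin-producing beta cells, and the series asks what the enzyme Cdo1 of the renal tubule does in that kidney. Cdo1 is cysteine dioxygenase, which oxidises cysteine on the way to taurine. The labels number the libraries as biological replicates. They do not spell out Sed, and they name neither the driver of the Cdo1 deletion nor ages, sexes, litters or batches.

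The mitochondrial ribosome, or mitoribosome, makes the few proteins encoded by mitochondrial DNA, all of them core parts of the respiratory chain and the ATP synthase. Its ribosomal RNAs come from the mitochondrial genome, while every one of its proteins is encoded in the nucleus, made in the cytosol and imported. Some of these proteins descend from the bacterial ribosome and others were added in the course of mitochondrial evolution. The kidney, above all the proximal tubule, is rich in mitochondria because it reabsorbs solutes at the cost of ATP.

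Libraries held 28145261 to 43872779 counts, of which the 78 genes took 0.265% to 0.269% in Cdo1KKO/Sed and 0.278% to 0.300% in WT/Sed. As a check of the labels, the Cdo1 transcript was counted at 59.8% of its WT/Sed level in Cdo1KKO/Sed (log2 fold change -0.74 ± 0.06, adjusted p = 4.64e-06; exact 2-sided permutation p = 0.1, the smallest that 3 libraries against 3 allow). Differences between groups are given in CPM, counts scaled to library sizes corrected by TMM (trimmed mean of M values, which sets the typical gene to no change). Each log2 fold change sets Cdo1KKO/Sed over WT/Sed and carries its SE. The words rose and fell are kept for genes with an adjusted p under 0.05 in the edgeR quasi-likelihood test, adjusted by the method of Benjamini and Hochberg over all 17194 genes tested. Levels of different genes are compared in TPM, the deposited values that divide counts by gene length. A whole-kidney library cannot tell fewer cells of a type from less RNA per cell.

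Relative to the typical gene of the kidney, most mitoribosomal genes were modestly lower in Cdo1KKO/Sed. Of the 78 genes, 77 passed the filter on low counts. In these, 45 fell, 2 rose (Mrps18b and Mrpl33) and 30 did not pass the test. Over all genes tested 18.5% fell and 18.9% rose, against 58.4% and 2.60% of the 77. The median log2 fold change was -0.27, with quartiles of -0.36 and -0.12, beside 0.01 over all genes tested. Fitted fold changes were below 0 for 71 of the 77 and ran from -0.83 (Mrps6) to 0.33 (Mrps18b). The Cdo1KKO/Sed libraries lay wholly below the WT/Sed libraries in 51 genes, or 66.2%, where 24.5% of all genes tested did so, and wholly above them in 3, where 25.7% of all genes did so. Among the 45 that fell the loss of mean CPM was between 11.4% and 43.6%, and in 7 of them the log2 fold change was under -0.5.

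**Figure D1:**
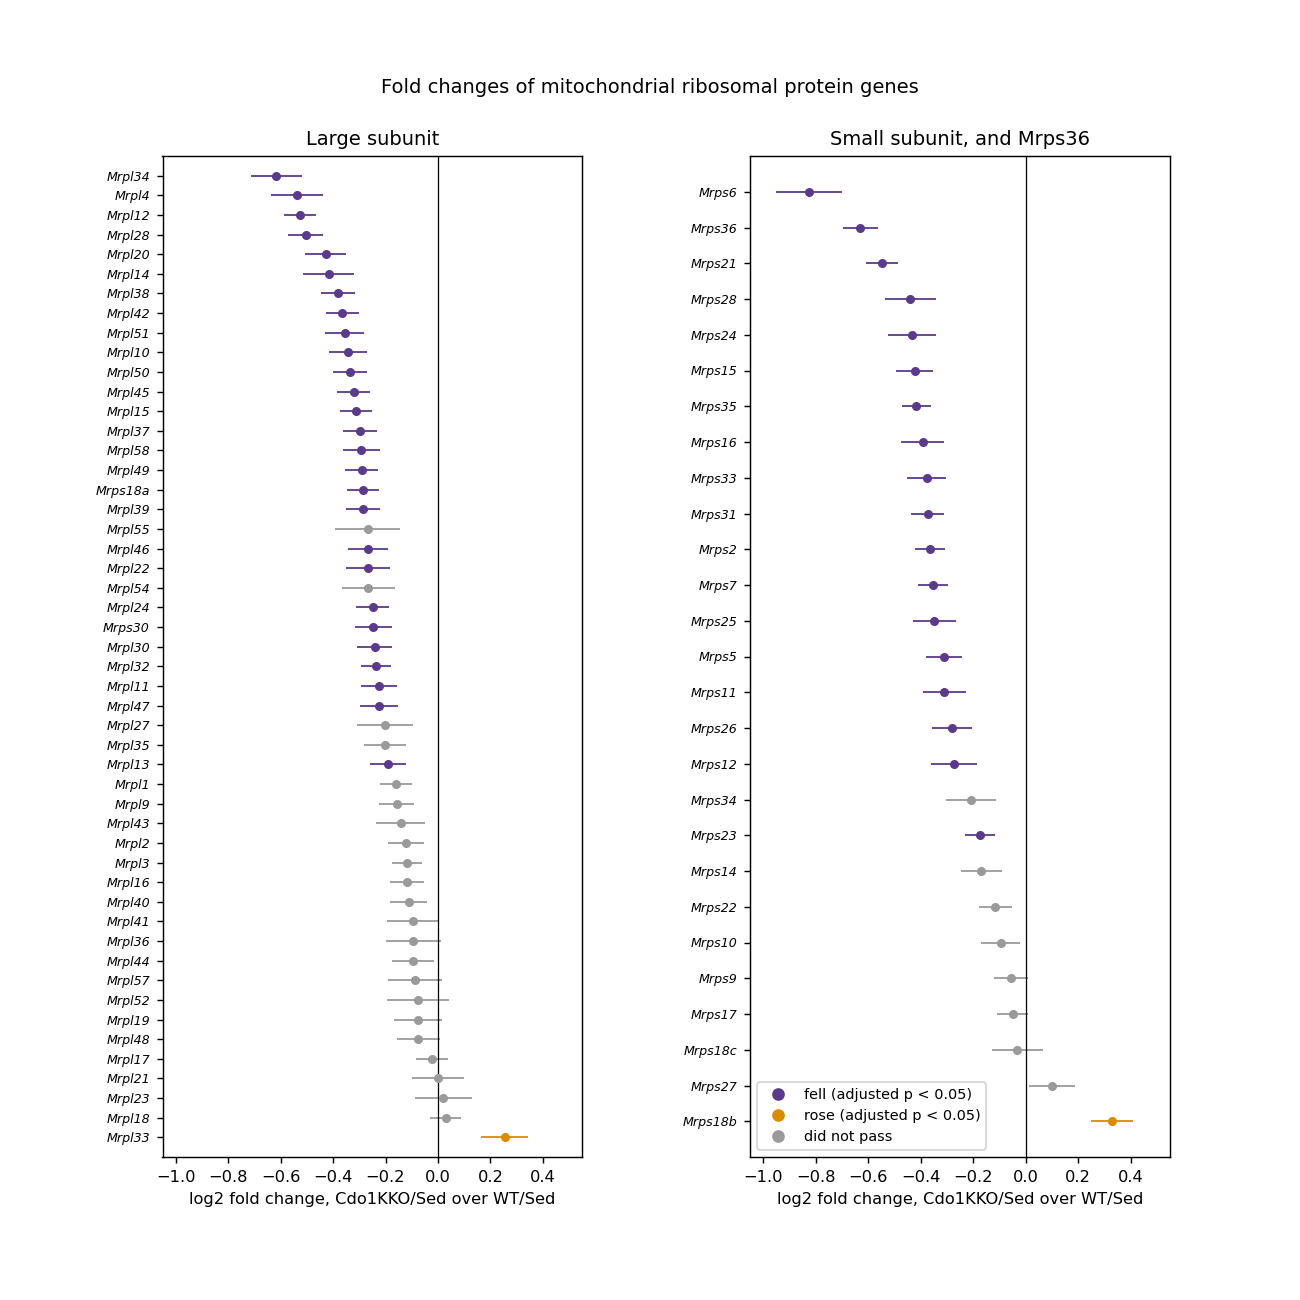
Log2 fold change, Cdo1KKO/Sed over WT/Sed, of the 77 mitochondrial ribosomal protein genes tested, with the large subunit on the left and the small subunit and Mrps36 on the right. Points are fitted values, bars are ± 1 SE, and colour gives the call; 71 points lie left of 0, from -0.83 for Mrps6, and the 2 orange genes at the bottom, Mrpl33 and Mrps18b, rose.

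How much these genes fell depended on what they were measured against. With library size as the only scaling 18 of the 77 fell (23.4%, against 9.8% of all genes) and 4 rose (5.19%, against 32.1%), with a median of -0.10. With the deposited TPM values (limma on log2(TPM + 1)) 7 fell, or 9.09%, which is close to the 7.59% of all genes, and 5 rose, or 6.49%, against 40.5% of all genes, with a median of -0.01. The 7 were Mrpl12, Mrpl28, Mrpl34, Mrps6, Mrps21, Mrps28 and Mrps36, and the 5 were Mrps18b, Mrpl33 and, uncalled in the main test, Mrpl17, Mrpl18 and Mrps27. Of the 71 genes below 0 in CPM 32 were above 0 with TPM. Those scalings moved the median of all genes to 0.18 and 0.21, so that the mitoribosomal median stood 0.27 below the median gene by library size and 0.21 below it by TPM, against 0.27 with TMM. With TPM over all genes, low ones included, the gap was 0.10. Of all genes called with library size only, 76.6% were rises, and 84.2% with TPM, against 50.5% with TMM. Summed over the 78 genes, TPM was 3177, 3240.0 and 3147 in Cdo1KKO/Sed and 3357, 3430 and 3253 in WT/Sed, so the groups differed little and did not overlap. The values below are therefore changes relative to the typical gene of the kidney, and the TPM change is added for genes described singly, where it has the other sign or loses or gains a call.

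**Figure D2:**
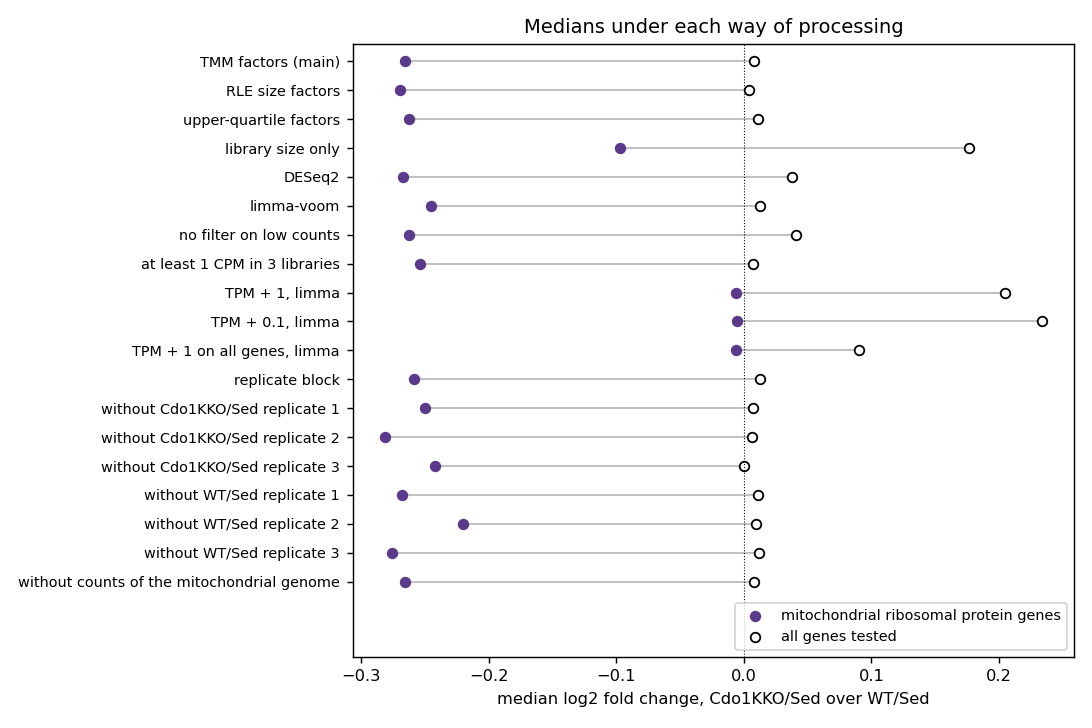
Median log2 fold change, Cdo1KKO/Sed over WT/Sed, of the 77 mitoribosomal genes (filled) and of all genes tested (open) under each way of processing, 1 row each. The filled point lies left of the open point in every row, and with library size only and with TPM both points move right, to -0.10 and 0.18 with library size and to -0.01 and 0.21 with TPM + 1.

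Levels within the mitoribosome spread widely although its proteins are present in 1 copy each, apart from the multimeric stalk protein Mrpl12. In WT/Sed the median gene tested stood at 33.1 TPM, with a range of 5.05 to 342 TPM. In Cdo1KKO/Sed the median was 33.9 TPM and the range 6.12 to 279 TPM. The highest was Mrps21, a small-subunit protein homologous to bacterial S21, at 279 ± 7.24 TPM in Cdo1KKO/Sed and 342 ± 18.7 TPM in WT/Sed (SD, n = 3 each here and below). It supplied 27.0% to 28.3% of the summed small-subunit TPM in Cdo1KKO/Sed and 30.3% to 32.6% in WT/Sed. Next in the small subunit came Mrps7, homologous to S7 of the bacterial subunit head, at 79.2 ± 1.57 TPM in Cdo1KKO/Sed and 84.9 ± 3.27 TPM in WT/Sed, and Mrps6, at 57.6 ± 1.53 TPM in Cdo1KKO/Sed and 85.7 ± 17.7 TPM in WT/Sed. In the large subunit the highest were Mrpl12, at 154 ± 3.96 TPM in Cdo1KKO/Sed and 186 ± 10.4 TPM in WT/Sed, the mitochondrion-specific Mrpl50, at 128 ± 2.24 TPM in Cdo1KKO/Sed and 136 ± 13.4 TPM in WT/Sed, and Mrpl34, at 86.1 ± 4.68 TPM in Cdo1KKO/Sed and 111 ± 12.2 TPM in WT/Sed. Mrpl12 stood above Mrpl50 in all 6 libraries. Mrpl34 came next in the WT/Sed libraries, while in the Cdo1KKO/Sed libraries 2 genes were above it. These were Mrpl2, of the catalytic region, at 100.1 ± 3.47 TPM in Cdo1KKO/Sed and 91.5 ± 5.42 TPM in WT/Sed, and Mrpl18, of the central protuberance, at 97.1 ± 4.88 TPM in Cdo1KKO/Sed and 79.8 ± 0.497 TPM in WT/Sed.

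At the low end of the small subunit were Mrps10, a homologue of bacterial S10, at 8.85 ± 0.481 TPM in Cdo1KKO/Sed and 7.94 ± 0.271 TPM in WT/Sed, and Mrps25, at 8.89 ± 0.606 TPM in Cdo1KKO/Sed and 9.49 ± 0.69 TPM in WT/Sed. Within each group these 2 genes differed little. Lowest of the tested large-subunit genes was Mrpl23, at 6.12 ± 0.305 TPM in Cdo1KKO/Sed and 5.05 ± 0.607 TPM in WT/Sed. Mrpl53 had 0 counts in all 6 libraries and was not tested; 88.0% of its exon bases are also exons of another gene on the same strand, Gm42688, and counts shared between genes may not have been given to either. The deposited TPM values divide by the length of all annotated exons of a gene joined together (GENCODE M21, to within 0.000463%). This was checked for the 77 genes tested, in WT/Sed replicate 1 only. A gene with a long joined exon length, such as Mrps35 with 8631 exon bases against 739 for Mrps21, is thus listed low for its counts. How much each exon was used was not measured. These levels are of RNA, and the protein was not measured.

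**Figure D3:**
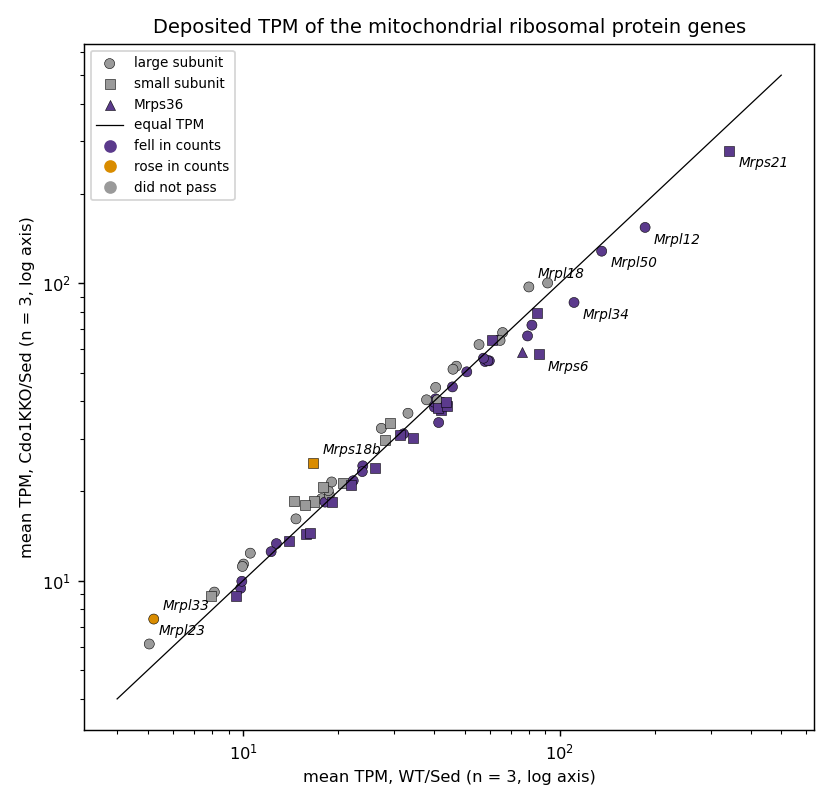
Mean deposited TPM of each mitochondrial ribosomal protein gene, Cdo1KKO/Sed on the vertical and WT/Sed on the horizontal axis (n = 3 each, both log axes), with the line of equal TPM. Shapes give the subunit and colours the call made in counts; the highest genes (Mrps21, Mrpl12, Mrpl50, Mrpl34) lie below the line, and Mrps18b, Mrpl33 and most genes that did not pass lie on or above it.

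The large subunit, which joins amino acids and holds the exit tunnel, had 50 genes tested: 27 fell, 1 rose and 22 did not pass, with a median of -0.24 that became 0.01 with TPM. The small subunit, which decodes the messenger, had 26: 17 fell, 1 rose and 8 did not pass, with a median of -0.31 (-0.06 with TPM). Mrps18a and Mrps30 are counted here as large-subunit proteins, where they sit despite their symbols. The summed TPM of the large subunit over that of the small was 2.10, 2.17 and 2.08 in Cdo1KKO/Sed and 2.01, 2.00 and 1.91 in WT/Sed, without overlap. Without Mrps21 the ratio was 2.92, 3.03 and 2.84 in Cdo1KKO/Sed and 2.88, 2.97 and 2.74 in WT/Sed, and the groups overlapped. No test of a difference between the subunits was made.

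Counts were also taken by descent, with no test of the difference. Homologues of bacterial ribosomal proteins numbered 46, of which 26 fell and 1 rose, with a median of -0.24. Of the 30 tested genes listed as mitochondrion-specific 18 fell and 1 rose, with a median of -0.27. The 1 that rose is Mrps18b, which was listed there although its family descends from bacterial S18. Split further, the medians were -0.21 for 30 bacterial homologues and -0.28 for 20 mitochondrion-specific genes of the large subunit, and -0.33 for 16 homologues and -0.24 for 10 mitochondrion-specific genes of the small subunit. In the small subunit 11 of the 16 homologues and 6 of the 10 others fell.

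The smallest p values among ribosomal members were those of Mrps21 and Mrpl12, which also had the highest TPM of their subunits. Mrps21 was counted at 76.5, 78.8 and 73.4 CPM in Cdo1KKO/Sed, against 108, 120.1 and 106 CPM in WT/Sed (log2 fold change -0.55 ± 0.06, adjusted p = 3.76e-05). Mrpl12 is the homologue of bacterial L7/L12, the flexible stalk that recruits translation factors, and it also binds the mitochondrial RNA polymerase. It had 89.0, 87.9 and 84.5 CPM in Cdo1KKO/Sed, against 125, 134 and 117 CPM in WT/Sed (log2 fold change -0.53 ± 0.06, adjusted p = 4.85e-05). In both genes every Cdo1KKO/Sed library was below every WT/Sed library, and both calls held with TPM (log2 fold change -0.29 for Mrps21 and -0.27 for Mrpl12).

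Mrpl28, a homologue of bacterial L28, had 33.7, 35.9 and 32.0 CPM in Cdo1KKO/Sed, against 50.5, 48.1 and 45.6 CPM in WT/Sed (log2 fold change -0.50 ± 0.07, adjusted p = 1.63e-04). Mrpl34, among the smallest proteins of the large subunit, had 18.9, 20.8 and 18.3 CPM in Cdo1KKO/Sed, against 30.5, 32.8 and 25.7 CPM in WT/Sed (log2 fold change -0.62 ± 0.10, adjusted p = 4.78e-04). Neither overlapped between groups, and both kept their calls under library size and TPM scaling. Other falls among the 8 smallest p values were in the small subunit and of lesser size. Mrps35, a mitochondrion-specific protein, had 46.3, 45.0 and 47.4 CPM in Cdo1KKO/Sed, against 59.6, 63.3 and 62.3 CPM in WT/Sed (log2 fold change -0.42 ± 0.06, adjusted p = 1.48e-04). Mrps2, the homologue of bacterial S2, had 41.1, 39.9 and 42.3 CPM in Cdo1KKO/Sed, against 53.2, 51.7 and 54.0 CPM in WT/Sed (log2 fold change -0.37 ± 0.06, adjusted p = 4.26e-04). In each of these the 3 libraries of a group lay close together and the groups were apart. Mrps7 had 60.6, 62.6 and 58.9 CPM in Cdo1KKO/Sed, against 77.2, 81.6 and 73.6 CPM in WT/Sed (log2 fold change -0.35 ± 0.06, adjusted p = 6.12e-04). With TPM the calls of Mrps35, Mrps2 and Mrps7 were lost, at log2 fold changes of -0.15, -0.11 and -0.10.

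Mrps6 had the lowest fold change of the 77 but not the smallest p. It is the homologue of bacterial S6, which pairs with S18 on the platform of the small subunit. Its counts were 32.3, 32.3 and 33.3 CPM in Cdo1KKO/Sed, against 57.1, 46.9 and 69.2 CPM in WT/Sed (log2 fold change -0.83 ± 0.13, adjusted p = 0.00117). Cdo1KKO/Sed libraries were nearly equal and WT/Sed libraries spread, with replicate 2 the lowest and replicate 3 the highest. Mrps6 lies on chromosome 16 (92058270 to 92112227, plus strand, GRCm38). On the same strand 19.9% of its exon bases are also exons of the protein-coding gene Gm49711, which was not tested. Exons of the inositol transporter gene Slc5a3, on that strand too, cover 10.4%. Slc5a3 itself stood at 268 CPM in Cdo1KKO/Sed and 346 CPM in WT/Sed and did not pass (log2 fold change -0.37 ± 0.18, adjusted p = 0.177). How reads of the shared exons were assigned is not given in the sources used here.

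Mrps36 had the smallest p of all 78 genes, and it is no ribosomal protein. Once listed as a small-subunit protein, it is now known as Kgd4, which ties the E3 enzyme into the 2-oxoglutarate dehydrogenase complex of the citrate cycle. It was counted at 28.2, 27.9 and 26.7 CPM in Cdo1KKO/Sed, against 42.5, 45.2 and 40.5 CPM in WT/Sed (log2 fold change -0.63 ± 0.07, adjusted p = 2.54e-05). All 3 Cdo1KKO/Sed values were below all WT/Sed values, and the call held with TPM (log2 fold change -0.37). Without it, 44 of the 76 ribosomal genes tested fell.

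**Figure D4:**
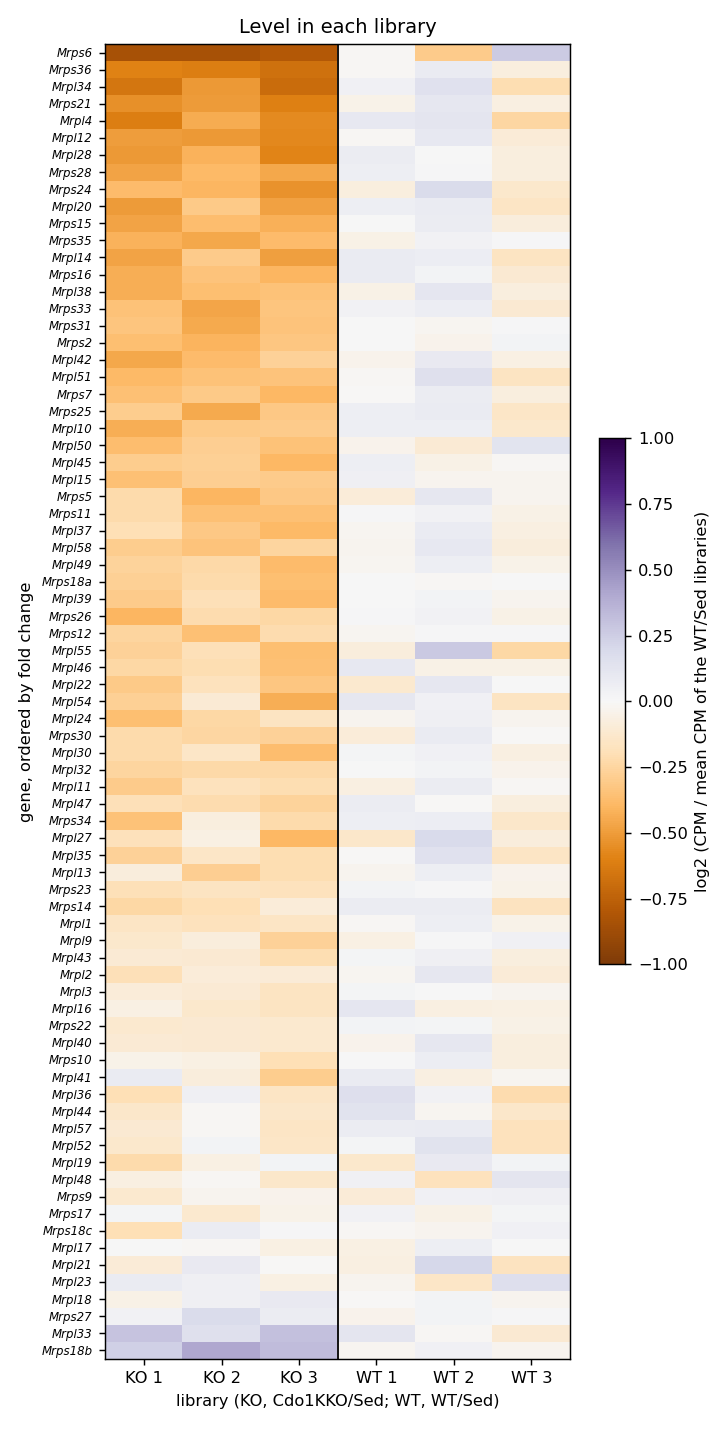
Level of each of the 77 genes tested in each library, as log2 of its CPM over the mean CPM of the WT/Sed libraries, with Cdo1KKO/Sed on the left and WT/Sed on the right of the black line. Orange is lower and purple higher than the WT/Sed mean; the Cdo1KKO/Sed columns are orange down to the last rows, where Mrpl33 and Mrps18b are purple, and the WT/Sed spread is widest for Mrps6.

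Only Mrps18b and Mrpl33 rose. Mrps18b was counted at 18.1, 20.4 and 19.2 CPM in Cdo1KKO/Sed, against 15.1, 15.7 and 15.0 CPM in WT/Sed (log2 fold change 0.33 ± 0.08, adjusted p = 0.00816). All Cdo1KKO/Sed libraries were above all WT/Sed libraries, under every setting tried the call held, and with TPM the log2 fold change was 0.55. An antisense gene, Gm16279, covers 30.5% of its exon bases and had 2.60 CPM in Cdo1KKO/Sed and 1.93 CPM in WT/Sed (adjusted p = 0.121). Mrpl33, homologous to bacterial L33, had 20.6, 18.7 and 20.9 CPM in Cdo1KKO/Sed, against 18.3, 16.7 and 15.6 CPM in WT/Sed (log2 fold change 0.25 ± 0.09, adjusted p = 0.0424). Its lowest Cdo1KKO/Sed library, replicate 2, was only just above its highest WT/Sed library, replicate 1. The Mrpl33 call was lost without Cdo1KKO/Sed replicate 1 (adjusted p = 0.136), Cdo1KKO/Sed replicate 3 (0.161) or WT/Sed replicate 3 (0.116), and with DESeq2 (0.0720), and was kept with TPM (log2 fold change 0.44).

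Mrps18b belongs to a family of 3 proteins descended from bacterial S18, and the 3 genes had different calls. Mrps18c, which takes the place of S18 itself, had just over 12, 14.5 and 13.9 CPM in Cdo1KKO/Sed, against 13.7, 13.5 and 14.2 CPM in WT/Sed and did not pass (log2 fold change -0.03 ± 0.10, adjusted p = 0.833; 0.21 with TPM, adjusted p = 0.0779). Mrps18a, which moved to the large subunit, had 31.9, 33.1 and 30.1 CPM in Cdo1KKO/Sed, against 38.8, 38.4 and 38.7 CPM in WT/Sed (log2 fold change -0.29 ± 0.06, adjusted p = 0.00406), with no overlap. So within the family Mrps18b rose, Mrps18a fell and Mrps18c was uncalled, its groups overlapping. The TPM change of Mrps18a was -0.03, with no call. Summed over the 3 genes, CPM was 62.0, 68.0 and 63.2 in Cdo1KKO/Sed and 67.6, 67.7 and 67.9 in WT/Sed.

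Of the L7/L12 stalk, where translation factors dock, all 3 genes fell in counts. Beside Mrpl12, Mrpl10, which anchors it, had 32.4, 35.3 and 35.5 CPM in Cdo1KKO/Sed, against 45.6, 45.5 and 40.0 CPM in WT/Sed (log2 fold change -0.34 ± 0.07, adjusted p = 0.00324). Mrpl11, at the stalk base, had 27.5, 30.0 and 29.5 CPM in Cdo1KKO/Sed, against 32.4, 35.7 and 33.7 CPM in WT/Sed (log2 fold change -0.23 ± 0.07, adjusted p = 0.0228). In both the highest Cdo1KKO/Sed library lay below the lowest WT/Sed library. With TPM neither was called, at -0.09 for Mrpl10 and 0.03 for Mrpl11, and the Mrpl11 call was lost without Cdo1KKO/Sed replicate 1 (adjusted p = 0.109) or replicate 3 (0.0589).

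Around the exit tunnel, through which the new chain leaves, 4 of the 6 genes listed fell in counts and 0 of 6 were lower with TPM by a call. Mrpl4 of the large subunit, which could also be counted here, was not listed. It fell, with log2 fold changes from -0.65 to -0.27 over the other settings. Its call held with library size only (edgeR adjusted p = 0.0125) and was lost with TPM (-0.27, limma adjusted p = 0.0750). Mrpl45, which holds the mitoribosome to the inner membrane, had 37.4, 37.9 and 34.9 CPM in Cdo1KKO/Sed, against 47.9, 44.3 and 45.5 CPM in WT/Sed (log2 fold change -0.32 ± 0.06, adjusted p = 0.00201). Mrpl22 had 17.7, 19.4 and 17.6 CPM in Cdo1KKO/Sed, against 20.2, 23.6 and 22.0 CPM in WT/Sed (log2 fold change -0.27 ± 0.08, adjusted p = 0.0288). Both showed no overlap, with a wider gap in Mrpl45. Mrpl24 had 49.9, 54.3 and 57.2 CPM in Cdo1KKO/Sed, against 62.7, 66.5 and 62.8 CPM in WT/Sed (log2 fold change -0.25 ± 0.06, adjusted p = 0.00964). Mrpl47 had 20.9, 20.5 and 19.9 CPM in Cdo1KKO/Sed, against 25.1, 23.8 and 22.6 CPM in WT/Sed (log2 fold change -0.22 ± 0.07, adjusted p = 0.0318). Their groups were also apart, but these 3 last calls were each lost when at least 1 library was left out. The Mrpl22 call was lost without Cdo1KKO/Sed replicate 1 (adjusted p = 0.109), Cdo1KKO/Sed replicate 3 (0.108) or WT/Sed replicate 2 (0.0576), and that of Mrpl24 without Cdo1KKO/Sed replicate 1 (0.0596). The Mrpl47 call was lost without any Cdo1KKO/Sed replicate (0.0764, 0.0789 and 0.107 for 1, 2 and 3) or without WT/Sed replicate 1 (0.138). With every library kept it was also lost with DESeq2 (adjusted p = 0.0606) and in edgeR without the filter on low counts (0.0576). The other exit tunnel genes listed did not pass: Mrpl17 had 35.4, 35.0 and 33.8 CPM in Cdo1KKO/Sed, against 33.9, 36.7 and 35.3 CPM in WT/Sed (log2 fold change -0.02 ± 0.06, adjusted p = 0.818), and Mrpl23 had 11.5, 11.2 and 10.4 CPM in Cdo1KKO/Sed, against 10.6, 9.82 and 12.1 CPM in WT/Sed (log2 fold change 0.02 ± 0.11, adjusted p = 0.907). With TPM Mrpl17 was called higher, at 0.21 (limma adjusted p = 0.0202), and Mrpl23 was at 0.24 (0.0660), where the median of all genes was 0.21. Mrpl24 and Mrpl47 had TPM changes of 0.00 and 0.03, and Mrpl45 and Mrpl22 of -0.07 and -0.01, all without a call.

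At the peptidyl transferase region, the catalytic heart of the large subunit, 0 of 4 genes were called. The 4 (Mrpl2, Mrpl3, Mrpl16 and Mrpl27) had log2 fold changes from -0.20 to -0.12 and adjusted p values from 0.132 upward. With TPM all 4 were above 0 and uncalled, at 0.13, 0.13, 0.14 and 0.05 in that order. Of 5 genes of the central protuberance, which faces the small subunit, Mrpl38 (-0.38 ± 0.06) and Mrpl46 (-0.27 ± 0.08) fell while Mrpl18, Mrpl40 and Mrpl48 did not pass. With TPM the calls of Mrpl38 (-0.12, limma adjusted p = 0.158) and Mrpl46 (-0.01, 0.908) were lost, and Mrpl40 (0.14) and Mrpl48 (0.17) were above 0 and uncalled. Mrpl18 was called higher with TPM (0.28, limma adjusted p = 0.0107) and with library size only (0.20, edgeR adjusted p = 0.0195). The medians of all genes in these settings were 0.21 and 0.18. Mrps12, of the decoding centre, fell with an adjusted p of 0.0308, which was lost without any 1 Cdo1KKO/Sed library or WT/Sed replicate 1 (0.0560 to 0.110) and with TPM (-0.02, 0.792). The Mrps12 call was also lost with DESeq2 (adjusted p = 0.0565), and in edgeR without the filter on low counts (0.0643) or with the replicate block (0.0526). Of the remaining genes named for the highest or lowest levels, Mrpl50 had 97.7, 103 and 99.3 CPM in Cdo1KKO/Sed, against 123, 117 and 138 CPM in WT/Sed (log2 fold change -0.33 ± 0.06, adjusted p = 0.00194). Mrps25 had 22.5, 20.2 and 22.1 CPM in Cdo1KKO/Sed, against 28.6, 29.0 and 24.9 CPM in WT/Sed (log2 fold change -0.35 ± 0.08, adjusted p = 0.00677). Both were without overlap, and for Mrps25 69.8% of the exon bases lie opposite exons of Nr2c2, a gene that rose. Both calls were lost with TPM (-0.08, limma adjusted p = 0.464, for Mrpl50 and -0.08, 0.402, for Mrps25) and with library size only (edgeR adjusted p = 0.0504 and 0.116). Mrps10 had 27.5, 27.2 and 24.7 CPM in Cdo1KKO/Sed, against 28.4, 29.5 and 26.9 CPM in WT/Sed, and the groups overlapped (adjusted p = 0.335; 0.14 with TPM, uncalled).

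Of the 47 calls, 34 held under all 14 settings that do not scale to the library total, the leaving out of each library included. The 13 that were lost under at least 1 of these were Mrpl11, Mrpl13, Mrpl22, Mrpl24, Mrpl30, Mrpl33, Mrpl46, Mrpl47, Mrps11, Mrps12, Mrps23, Mrps26 and Mrps30. Over all 18 settings, scaling to the total included, 6 calls held: Mrps21, Mrps36, Mrpl12, Mrpl28, Mrpl34 and Mrps18b. For the 8 genes Mrpl11, Mrpl13, Mrpl24, Mrpl30, Mrpl32, Mrpl47, Mrps23 and Mrps30 the fold change was above 0 with TPM, by at most 0.08, and uncalled.

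Of the genes tested that encode proteins 14.9% have another protein-coding gene starting within 1000 bases on the opposite strand. Among the 78 mitoribosomal genes 33, or 42.3%, did so, on the GENCODE M21 annotation of GRCm38. Only 1 such pair joins mitoribosomal genes: Mrpl46 of the large subunit (chromosome 7, 78775236 to 78783531, minus strand) and Mrps11 of the small (chromosome 7, 78783119 to 78792989, plus strand), whose exons overlap by 173 bases in GENCODE. Both fell in counts, Mrpl46 with 21.2, 21.7 and 19.5 CPM in Cdo1KKO/Sed, against 26.7, 24.1 and 24.2 CPM in WT/Sed (log2 fold change -0.27 ± 0.08, adjusted p = 0.0191) and Mrps11 with 15.6, 14.3 and 14.3 CPM in Cdo1KKO/Sed, against 18.5, 18.7 and 17.7 CPM in WT/Sed (log2 fold change -0.31 ± 0.08, adjusted p = 0.0115). The groups were apart in both genes. These calls were lost for Mrpl46 without Cdo1KKO/Sed replicate 1 (adjusted p = 0.0562), Cdo1KKO/Sed replicate 3 (0.0845) or WT/Sed replicate 1 (0.0974), and for Mrps11 without Cdo1KKO/Sed replicate 3 (0.0515). Both were also lost with library size only (0.337 for Mrpl46 and 0.195 for Mrps11) and with TPM, at -0.01 for Mrpl46 and -0.05 for Mrps11 (limma adjusted p = 0.908 and 0.488). Over all 33 mitoribosomal genes, 30 had a neighbour that was tested, of which 11 fell and 2 rose, with a median of -0.22. For comparison, 18.5% of all genes tested fell and 18.9% rose. Mrpl46 and Mrps11 are each the other's neighbour, and both stand among the 11. Mrpl36 and Mrpl47 neighbour subunits of respiratory complex I, Ndufs6 and Ndufb5, which fell (log2 fold changes -0.47 ± 0.06 and -0.50 ± 0.07). Mrpl18 neighbours the chaperonin gene Tcp1, which rose (0.25 ± 0.06). If the counting did not use strand, reads of overlapping exons cannot be told apart.

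Promoter sequence was available in the RefSeq table (GRCm38.p6) for 69 of the 78 genes, as the 250 bases before and 50 bases after the start. Shown are Mrps21, Mrpl12 and Mrpl34, which fell and are abundant, the only genes that rose, Mrps18b and Mrpl33, and Mrps11 of the head-to-head pair. Capitals mark letters bound by factors known for nuclear genes of mitochondria, searched on both strands: GCATGCG for NRF-1, CCGGAAG for the ETS family to which GABP (NRF-2) belongs, and GATGGCG for YY1.
Mrps21, chr3:95871465-95871764, minus strand: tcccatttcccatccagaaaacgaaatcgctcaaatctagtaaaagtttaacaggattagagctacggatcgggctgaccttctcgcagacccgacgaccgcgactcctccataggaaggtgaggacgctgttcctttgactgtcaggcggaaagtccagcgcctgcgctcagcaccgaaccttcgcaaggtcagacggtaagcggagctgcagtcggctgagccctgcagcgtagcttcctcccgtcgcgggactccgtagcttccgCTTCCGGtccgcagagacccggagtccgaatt
Mrpl12, chr11:120484387-120484686, plus strand: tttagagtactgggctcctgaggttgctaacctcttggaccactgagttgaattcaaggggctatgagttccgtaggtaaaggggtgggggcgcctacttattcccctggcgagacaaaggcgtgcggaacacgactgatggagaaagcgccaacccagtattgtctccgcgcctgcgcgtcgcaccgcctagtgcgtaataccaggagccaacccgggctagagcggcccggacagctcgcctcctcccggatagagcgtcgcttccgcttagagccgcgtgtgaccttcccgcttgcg
Mrpl34, chr8:71464676-71464975, plus strand: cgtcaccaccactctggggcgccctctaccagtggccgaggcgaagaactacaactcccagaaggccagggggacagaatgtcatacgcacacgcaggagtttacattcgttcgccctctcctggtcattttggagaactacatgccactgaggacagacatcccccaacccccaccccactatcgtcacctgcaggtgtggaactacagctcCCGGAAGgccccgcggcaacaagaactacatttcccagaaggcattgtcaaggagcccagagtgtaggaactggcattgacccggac
Mrps18b, chr17:35916391-35916690, minus strand: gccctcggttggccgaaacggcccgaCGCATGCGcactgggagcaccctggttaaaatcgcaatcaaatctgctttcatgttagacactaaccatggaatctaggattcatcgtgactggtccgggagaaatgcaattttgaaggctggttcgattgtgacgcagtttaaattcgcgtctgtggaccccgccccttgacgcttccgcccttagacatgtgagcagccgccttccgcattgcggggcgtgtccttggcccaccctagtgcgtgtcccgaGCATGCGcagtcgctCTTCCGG
Mrpl33, chr5:31613701-31614000, plus strand: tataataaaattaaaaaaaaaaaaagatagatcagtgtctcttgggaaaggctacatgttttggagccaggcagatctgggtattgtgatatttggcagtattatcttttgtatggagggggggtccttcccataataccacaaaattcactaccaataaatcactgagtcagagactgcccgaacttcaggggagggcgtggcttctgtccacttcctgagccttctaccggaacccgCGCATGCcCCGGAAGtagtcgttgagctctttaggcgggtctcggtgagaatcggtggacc
Mrps11, chr7:78782881-78783180, plus strand: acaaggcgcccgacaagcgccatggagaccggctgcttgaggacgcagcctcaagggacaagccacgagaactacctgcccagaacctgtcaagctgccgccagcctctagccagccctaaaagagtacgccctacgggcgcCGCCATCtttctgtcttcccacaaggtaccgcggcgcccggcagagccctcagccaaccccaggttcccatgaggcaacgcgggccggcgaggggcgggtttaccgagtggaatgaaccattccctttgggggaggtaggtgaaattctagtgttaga

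Counting the first transcribed base as 1, the ETS letters began at base 19 in Mrps21, at -37 in Mrpl34, at 44 in Mrps18b and at -3 in Mrpl33, and the Mrpl12 window held none of the 3 sets. Mrpl33 also had the NRF-1 letters at -11, and Mrps18b at -224 and 29. The YY1 letters of Mrps11 began at -108, and 141 bases of this window belong to the Mrpl46 window as well. RefSeq starts Mrpl33 within the span that GENCODE gives the gene, so its window is that of an inner start. The Mrpl46 window (78783040 to 78783339) likewise lies wholly inside the GENCODE span of that gene, which ends at 78783531. The Mrps18b window, on the minus strand, lies wholly outside the GENCODE span of that gene, which ends at 35916389. Its letters at 29 and 44 thus come before the GENCODE start. The exon overlap given above for Mrpl46 and Mrps11 is that of GENCODE.

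The ETS letters stood in 36.2% of the mitoribosomal windows and in 11.9% of all 17492 windows of the table. NRF-1 letters were in 11.6% against 4.49%, and YY1 letters in 11.6% against 4.46%. Sp1 (GGGCGG, 49.3% against 46.3%), CCAAT (39.1% against 39.0%), the E-box CACGTG (7.25% against 7.90%), the ERR half-site AAGGTCA (5.80% against 4.08%) and the CREB/ATF site TGACGTCA (2.90% against 2.34%) were about as frequent in both. Of 24 tested genes with ETS letters 11 fell and 2 rose, with a median of -0.16, and of 44 without them 28 fell and 0 rose, with a median of -0.27. Of 8 genes with NRF-1 letters 4 fell and 2 rose, with a median of -0.20, and of 60 without them 35 fell and 0 rose, with a median of -0.26. For YY1 letters 5 of 8 genes with them fell and 0 rose, and of 60 without them 34 fell and 2 rose. ETS and NRF-1 letters stood together in 4 mitoribosomal windows (Mrpl17, Mrpl22, Mrpl33 and Mrps18b), or 5.80%, against 0.823% of all windows. These 4 include both genes that rose, 1 that fell and 1 without a call, a set picked out after their values were seen. A match of letters is a description and does not show that a factor binds there.

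Lists of other genes that serve mitochondrial translation were counted in the same way. Mitoribosomal proteins that bear other names numbered 5. Dap3, a GTP-binding protein of the small subunit, averaged 59.6 ± 2.41 CPM in Cdo1KKO/Sed and 70.3 ± 2.93 CPM in WT/Sed (log2 fold change -0.24 ± 0.06, adjusted p = 0.00697). Ptcd3 averaged 47.8 ± 1.45 CPM in Cdo1KKO/Sed and 55.8 ± 3.23 CPM in WT/Sed (log2 fold change -0.22 ± 0.06, adjusted p = 0.0145), and Aurkaip1 33.6 ± 2.17 CPM in Cdo1KKO/Sed and 39.9 ± 4.34 CPM in WT/Sed (log2 fold change -0.24 ± 0.09, adjusted p = 0.045). Chchd1 (-0.14, adjusted p = 0.150) and Gadd45gip1 (-0.47, adjusted p = 0.110) did not pass. The Dap3 call was lost without Cdo1KKO/Sed replicate 1 (adjusted p = 0.0502), that of Ptcd3 without Cdo1KKO/Sed replicates 1 (0.0733) or 2 (0.0582), and that of Aurkaip1 without any 1 library but WT/Sed replicate 3 (0.0535 to 0.169). With TPM 0 of these 5 were called and their median was 0.01.

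Among 15 translation factors of the mitochondrion 13 fell and the median was -0.34 (-0.08 with TPM, where 1 fell). The elongation factor Tufm, which brings charged tRNAs to the mitoribosome, averaged 99.3 ± 5.86 CPM in Cdo1KKO/Sed and 142 ± 3.99 CPM in WT/Sed (log2 fold change -0.51 ± 0.06, adjusted p = 4.15e-05). Guf1, the homologue of bacterial elongation factor 4, averaged 34.6 ± 1.01 CPM in Cdo1KKO/Sed and 45.3 ± 1.91 CPM in WT/Sed (log2 fold change -0.39 ± 0.06, adjusted p = 5.11e-04), and Rmnd1, an inner-membrane protein that supports mitochondrial translation, 36.7 ± 2.36 CPM in Cdo1KKO/Sed and 50.8 ± 5.06 CPM in WT/Sed (log2 fold change -0.47 ± 0.08, adjusted p = 9.31e-04). Mtrf1 (-0.15, adjusted p = 0.336) and Pdf (0.89, adjusted p = 0.129) did not pass. Of these, the Tufm call held with TPM.

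Of 27 assembly factors and enzymes that modify the ribosomal RNA 9 fell and 1 rose, with a median of -0.24, and with TPM 0 fell, 3 rose and the median was 0.02. Over all genes, for this list and those below, 18.5% fell and 18.9% rose in the main test, and 7.59% fell and 40.5% rose with TPM. Mterf3 (-0.30 ± 0.06), the GTPase Noa1 (-0.40 ± 0.08) and the GTPase Mtg2 (-0.38 ± 0.08) had the smallest p of those that fell. The helicase Ddx28 rose (0.35 ± 0.11, adjusted p = 0.0298), a call lost without any 1 Cdo1KKO/Sed library (0.0773 to 0.0977) or WT/Sed replicate 3 (0.0858). Without Cdo1KKO/Sed replicate 1, 5 genes of the list fell. Of 20 mitochondrial aminoacyl-tRNA synthetases and amidotransferase subunits 9 fell and 1 rose, with a median of -0.25 that was 0.00 with TPM, where 0 fell and 6 rose. Gatb (-0.38 ± 0.06), the threonyl enzyme Tars2 (-0.32 ± 0.07) and the alanyl enzyme Aars2 (-0.49 ± 0.11) fell. Qrsl1 (0.27 ± 0.09, adjusted p = 0.0308), the catalytic subunit of the same amidotransferase as Gatb, rose, and its call was lost without Cdo1KKO/Sed replicate 1 (0.124), Cdo1KKO/Sed replicate 3 (0.0972) or WT/Sed replicate 2 (0.0610), and with DESeq2 (0.0521). Without Cdo1KKO/Sed replicate 1, 6 genes of this list fell. Of 19 genes of mitochondrial transcription and RNA processing 9 fell and 0 rose (4 to 5 fell without any 1 Cdo1KKO/Sed library), with a median of -0.20 that was 0.04 with TPM. They included Hsd17b10 (-0.40 ± 0.06), a subunit of mitochondrial RNase P, Fastkd1 (-0.37 ± 0.06) and the RNA granule protein Grsf1 (-0.26 ± 0.05).

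The genes for proteins that the mitoribosome makes, and for their partners, had lower medians than the mitoribosomal genes, a difference that was not tested. Of the 13 transcripts translated on the mitoribosome 11 fell, with a median of -0.53 (-0.26 with TPM, where 6 fell). Of 75 nuclear genes of oxidative phosphorylation, whose products join them in the same complexes, 74 fell, with a median of -0.43 (-0.18 with TPM, where 33 fell and 1 rose). Of 78 genes of cytosolic ribosomal proteins 7 fell and 8 rose, the median being -0.01, and with TPM 55 rose and the median was 0.24. Over all genes with TPM 40.5% rose and 7.59% fell, with a median of 0.21. Without 1 library, 1 to 17 of these 78 fell and 1 to 11 rose; 17 fell without WT/Sed replicate 3. The ratio of summed TPM of mitoribosomal over cytosolic ribosomal proteins was 0.137, 0.143 and 0.138 in Cdo1KKO/Sed and 0.170, 0.174 and 0.169 in WT/Sed. This ratio does not depend on the scaling of a library, and it was lower in each Cdo1KKO/Sed library. Mitoribosomal over nuclear oxidative phosphorylation genes gave 0.138, 0.138 and 0.141 in Cdo1KKO/Sed and 0.129, 0.132 and 0.129 in WT/Sed, a higher ratio in each Cdo1KKO/Sed library. Summed TPM of the 13 mitochondrial genes over that of the mitoribosomal genes was 88.6, 86.8 and 91.9 in Cdo1KKO/Sed and 94.2, 92.1 and 98.1 in WT/Sed, with a narrow gap between the groups. With 3 libraries a group no permutation test of such a ratio can go below 0.1, and none was run.

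**Figure D5:**
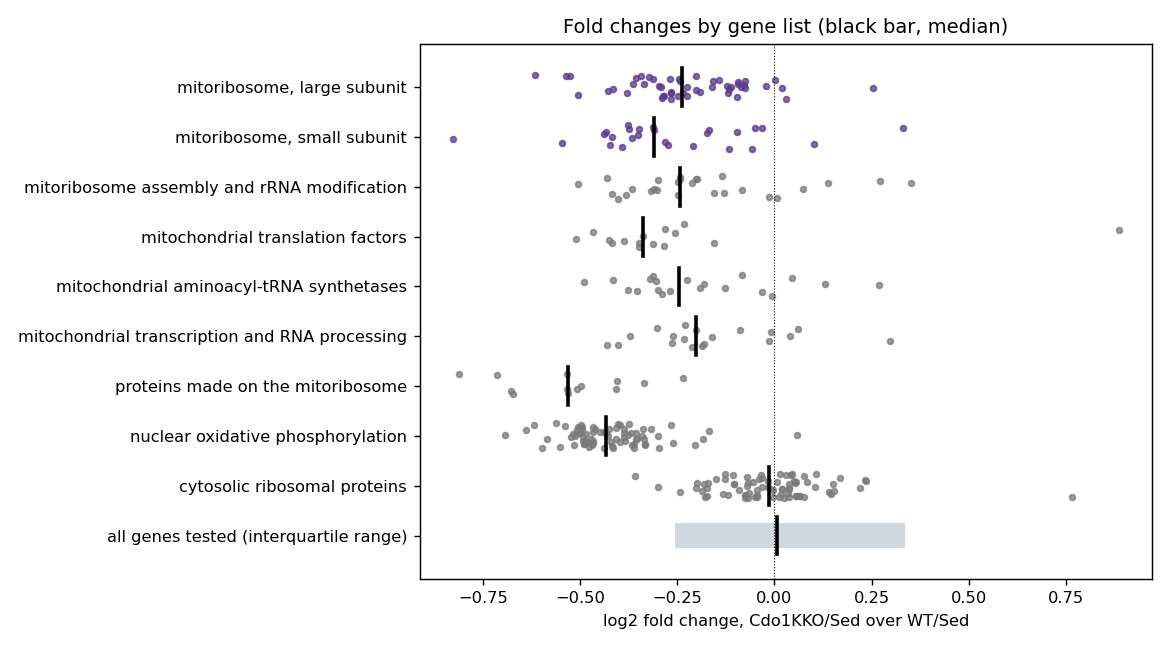
Log2 fold change, Cdo1KKO/Sed over WT/Sed, of each gene tested in the mitoribosomal subunits and in the lists set beside them. Points are genes, black bars are medians and the grey bar is the interquartile range of all genes tested; the large and small subunit medians of -0.24 and -0.31 lie between those of the cytosolic ribosomal proteins (-0.01) and nuclear oxidative phosphorylation (-0.43), and with TPM the large subunit median is 0.01.

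Of 15 regulators known to act on nuclear genes of mitochondria 6 rose and 2 fell, and with library size only or with TPM 10 rose and 1 fell. Over all genes 18.9% rose and 18.5% fell in the main test, 32.1% and 9.8% with library size only, and 40.5% and 7.59% with TPM. The stress factors Atf4 (1.08 ± 0.06) and Ddit3 (1.40 ± 0.11) and the coactivator Ppargc1b (0.84 ± 0.16) had the smallest p among those that rose. Esrra (-0.57 ± 0.07) and Esrrb (-0.38 ± 0.09), nuclear receptors that bind the ERR half-site and drive genes of energy metabolism, fell; with TPM the Esrrb call was lost (-0.11, limma adjusted p = 0.386). Nrf1 at -0.19 (adjusted p = 0.190), the GABP subunit Gabpa at 0.05 (0.469) and Yy1 at 0.00 (0.989) did not pass. With TPM Gabpa (0.30, limma adjusted p = 0.00812) and Yy1 (0.25, 0.0242) were called higher, and Nrf1 was at 0.06 (0.614). The median of all genes in that setting was 0.21.

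Markers of cell types moved in the same libraries. All 15 markers of the proximal tubule fell (median -0.69), and their summed TPM was 90592 to 98879 in Cdo1KKO/Sed and 109025 to 123140 in WT/Sed. Mitoribosomal TPM over proximal tubule marker TPM was 0.0334, 0.0328 and 0.0347 in Cdo1KKO/Sed and 0.0294, 0.0279 and 0.0298 in WT/Sed, so the markers were lower by a larger factor. Of 7 markers of the thick ascending limb 5 rose and 1 fell (summed TPM 3560 to 3822 in Cdo1KKO/Sed and 1754 to 2339 in WT/Sed), of 6 of the distal convoluted tubule 4 rose (737 to 747 in Cdo1KKO/Sed and 397 to 464 in WT/Sed), and of 9 of the collecting duct 2 rose and 2 fell (546 to 558 in Cdo1KKO/Sed and 790 to 831 in WT/Sed). The collecting duct sum was lower in Cdo1KKO/Sed, but only 3 of its 9 markers had a log2 fold change below 0. These changes ran from -1.45 to 0.98, with a median of 0.15. In the collecting duct list 5 rose without WT/Sed replicate 2, with library size only and with TPM, and 1 rose without Cdo1KKO/Sed replicate 3 or WT/Sed replicate 1. Over all genes 32.1% rose with library size only and 40.5% with TPM. Of 10 macrophage markers 8 rose and 1 fell, with summed TPM of 605 to 641 in Cdo1KKO/Sed and 51.5 to 94.5 in WT/Sed. Their log2 fold changes had a median of 1.43 and ran from -0.33 to 6.23, so the sum does not stand for each marker. Without any 1 Cdo1KKO/Sed library or WT/Sed replicate 1, 5 macrophage markers rose. Neutrophil markers rose in 5 of 6 cases (57.4 to 72.9 in Cdo1KKO/Sed and 3.09 to 7.93 in WT/Sed), fibroblast markers in 5 of 7 (26.0 to 30.6 in Cdo1KKO/Sed and 9.09 to 13.6 in WT/Sed), and T cell markers in 0 of 6 (4.28 to 5.82 in Cdo1KKO/Sed and 2.63 to 3.86 in WT/Sed), or 1 without WT/Sed replicate 2. All 3 neutrophil markers tested with TPM rose. No marker listed was at 0 in all libraries of a group. The part of cell composition in the mitoribosomal changes was not tested.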

How the data were processed

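Kidney RNA of 3 Cdo1KKO/Sed and 3 WT/Sed mice, all given streptozotocin, was selected with oligo(dT) beads before VAHTS Universal V6 library preparation, per the labels' protocols. Reads were handled with fastp 0.23.4, and the builds are GRCm38 and mm10, per the submitters' processing notes. Neither aligner nor counter, annotation or use of strand is given in the sources used here. Both deposited tables cover 55401 genes, whole-number counts per gene in the authors' first table and TPM in their second. In WT/Sed replicate 1 the deposited TPM of the 77 mitoribosomal genes tested was proportional to counts over joined exon length in GENCODE M21. Other genes and libraries were not checked in this way. The TPM values have the same total in each library. Reads carry no molecular identifiers, so replicate spread and not counting is the error given. 

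The analysis of counts used edgeR 4.0.16 (R 4.3.3): filterByExpr kept 17194 genes, TMM factors scaled the libraries, and a robust quasi-likelihood fit with genotype as its only term was tested over all genes with Benjamini-Hochberg adjustment. The library with the fewest counts held 262 for a mitoribosomal gene that passed the filter. An SE is the log2 fold change over the square root of the F statistic. The fitting code was tested on simulated data. Other runs used RLE, upper-quartile or no factors, DESeq2 1.42.0, limma-voom (limma 3.58.1), other filters, limma on log2(TPM + 1) or log2(TPM + 0.1), which understates the change of low genes, a replicate block and the loss of each library. Deviations of same-numbered libraries correlated at -0.02 to 0.02, which gave no sign that replicate numbers pair libraries. Such correlations cannot exclude a pairing, and the labels name no litters or batches. All pairs of libraries within a group differed by more than counting noise. Chi-square per degree of freedom was 3.37 to 7.3 in Cdo1KKO/Sed and 11.3 to 34.9 in WT/Sed, where replicates 2 and 3 differed most.

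Genes given library by library were, by rule, those with the 8 smallest p among calls in each direction, the 3 highest and 2 lowest by TPM in each subunit, the stalk, exit tunnel and S18 family genes, Mrps36, and the largest and smallest fold changes. In lists of other genes they were the 3 with the smallest p in each direction and all of a count of 5 or fewer. Chosen after seeing their values, outside this rule, were Mrpl2, Mrpl4, Mrpl18, Mrpl46, Mrps11 and Mrps12, genes called with TPM, genes of short counts, genes that lost a call or changed sign, neighbouring and overlapping genes, and Nrf1, Gabpa and Yy1. Members and lists were chosen with earlier results of these data known. Roles within the mitoribosome were assigned from textbook knowledge. Gene positions came from GENCODE M21 and promoter windows from RefSeq, matched by symbol. Plots were made in Python 3.11.15 (matplotlib 3.10.9).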

Additional observations from a re-analysis of the deposited data

How the results depend on the processing

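Scaling to the library total changed the counts of calls most. With library size only 5513 genes rose and 1685 fell over all genes, and of the mitoribosomal genes 18 fell and 4 rose with a median of -0.10. With log2(TPM + 1) 5888 rose and 1104 fell, 7 mitoribosomal genes fell, 5 rose and the median was -0.0058. With log2(TPM + 0.1) the counts were 5695 and 1062 over all genes, again 7 and 5 of the mitoribosomal genes, and the median was -0.0057. With log2(TPM + 1) on all genes, 5818 rose and 946 fell, 5 mitoribosomal genes fell, 5 rose and the median was -0.0058. The cause was not tested; the median of all genes moved up under each of these settings. In 32 mitoribosomal genes the fold change was below 0 in the main test and above 0 with TPM + 1. Among genes given library by library that were called in either, these signs reversed with TPM + 1 (filtered and on all genes) and TPM + 0.1: Mrpl47 (0.0275 and 0.0295), Mrpl24 (0.000401 and 0.000378), Mrpl11 (0.0251 and 0.0261) and Mrpl17 (0.213 and 0.229, called higher). With DESeq2 1 mitoribosomal gene rose.

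Without 1 library each, 35 to 52 mitoribosomal genes fell, 1 to 2 rose, and the median was -0.28 to -0.22; over all genes 2306 to 3767 rose and 2331 to 3553 fell. The highest number, 52, came without WT/Sed replicate 3. Fits that leave out a library rest on fewer samples. With the replicate block 43 fell and 2 rose with a median of -0.26, and the block lost the calls of Mrpl13, Mrps12 and Mrps23 (adjusted p 0.0526 to 0.0633). The replicate numbers gave no sign of pairing the libraries. Without the counts of the mitochondrial genome, a setting chosen after seeing the data, 45 fell and 2 rose. Under RLE or upper-quartile factors, limma-voom and other filters 44 to 45 fell and 2 rose.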

Other observations

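Processed pseudogenes of these genes were nearly silent: the tables hold 6, the highest count in any library was 12, and none was tested. Shorter genes had slightly lower fold changes in the fit as a whole. Across 16672 genes tested, Spearman's rho between joined exon length and log2 fold change was 0.13 (genes are not independent replicates), and medians of 5 equal classes by length ran from -0.10 to 0.07. The mitoribosomal genes had a median of 2394 exon bases against 3823.5 for all genes tested, and the part of length in their fold changes was not tested. Of the 3 genes that have over 50% of their exon bases in common with another gene, Mrpl53 had 0 counts, Mrps25 fell and Mrps34 (-0.21, adjusted p = 0.114) did not pass.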
